A study of Danio rerio with 12 samples.

Results

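Photoreceptor genes for light detection, 9 in number, were followed across a zebrafish larval exposure to perfluorooctanesulfonate (PFOS), a persistent fluorinated surfactant. They were chosen by name: the cone opsins opn1sw1, opn1sw2, opn1mw1 and opn1lw1, the transducin subunits gnat1 and gnat2, the cone phosphodiesterase pde6c, the cone arrestin arr3a and the transcription factor crx. The 9 names matched 10 of the 26873 gene entries in the files, because crx is also the name of an antisense entry (ENSDARG00000097813). That entry held values of 0 to 4 and did not pass the filter on low values, whereas all 9 protein-coding entries passed it and were tested. The libraries came from a stranded kit, but whether the counting used the strand is not given in the sources used here.

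Light is detected in photoreceptors by an opsin bound to a retinal chromophore, and the type of opsin sets the wavelengths to which a cell responds. An activated opsin switches on transducin, transducin activates a phosphodiesterase that hydrolyses cyclic GMP, cyclic nucleotide-gated channels close, and arrestin ends the signal. Zebrafish larvae see mainly with cones, which carry ultraviolet, blue, green or red opsins. Crx is a homeodomain factor that drives photoreceptor genes.

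Poly-A RNA of whole, wild-type larvae at the eleutheroembryo stage was sequenced 5 days after fertilization. A solvent control and PFOS, added to the water as its potassium salt at 0.03, 0.3 or 1 ppm from day 2 to day 5, made up 4 groups with 3 libraries in each. Every group, the control included, was kept in 0.2% DMSO, and each library was made from 10 pooled larvae. The labels number the replicates of every group 1 to 3 but do not state separate clutches or tanks, so every p measures only the spread between these libraries, which may be technical. The deposited values are normalised counts that the authors rounded, with sums of 24061372 to 31907243 per library. Raw counts were not used here, so no counting interval is given. Because whole larvae were used, fewer photoreceptor cells and less RNA per photoreceptor cannot be told apart. No gene lengths were used, so levels are compared between libraries for the same gene and not between genes.

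None of the 9 genes was called at any dose at an adjusted p under 0.05 (limma with Benjamini-Hochberg adjustment over 22320 genes). The share of all genes called was 0.0582% at 0.03 ppm, 0.13% at 0.3 ppm and 0.139% at 1 ppm, so with 9 genes a count of 0 is near that background. The estimate farthest from 0 was that of the red opsin opn1lw1 at 0.3 ppm, 43.3 ± 18.0 normalised counts against 81.0 ± 24.6 in the control (SD, n = 3 each), and it did not pass the test. The other 8 genes had log2 fold changes between -0.21 and 0.14 over the 3 doses. They differed more between libraries of the same group than between the means of the groups.

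The ultraviolet cone opsin opn1sw1 (ENSDARG00000045677) had 16032, 9165 and 11912 normalised counts in control replicates 1 to 3, 17166, 9835 and 11272 at 0.03 ppm, 10209, 9856 and 17751 at 0.3 ppm, and 16047, 6650 and 19990 at 1 ppm. Both the highest and the lowest of the 12 values were therefore at 1 ppm, and each dose overlapped the control. The group means were 12370 ± 3460 in the control, 12760 ± 3880 at 0.03 ppm, 12610 ± 4460 at 0.3 ppm and 14230 ± 6850 at 1 ppm (SD, n = 3 each). The log2 fold change over the control was 0.04 at 0.03 ppm, 0.01 at 0.3 ppm and 0.10 at 1 ppm, the last with a 95% interval of -0.74 to 0.93.

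The blue cone opsin opn1sw2 (ENSDARG00000017274) had 5050, 2886 and 4463 normalised counts in control larvae, 5818, 3245 and 4332 at 0.03 ppm, 3457, 3114 and 6707 at 0.3 ppm, and 4986, 2497 and 6665 at 1 ppm. The green cone opsin opn1mw1 (ENSDARG00000097008) had 6085, 2804 and 4488 in the control, 5983, 3345 and 4510 at 0.03 ppm, 3565, 3081 and 7062 at 0.3 ppm, and 5831, 2300 and 7579 at 1 ppm. In both genes the replicate 2 library was the lowest of its group in all 4 groups, and the library at 1 ppm was the lowest of the 12. The log2 fold change at 1 ppm was 0.12 (95% interval -0.71 to 0.94) for opn1sw2 and 0.14 (-0.82 to 1.09) for opn1mw1.

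The red cone opsin opn1lw1 (ENSDARG00000044862) was the only 1 of the 9 genes in which a dosed group did not overlap the control. It had 107, 78 and 58 normalised counts in control larvae, 94, 52 and 88 at 0.03 ppm, 50, 23 and 57 at 0.3 ppm, and 49, 39 and 75 at 1 ppm. All 3 libraries at 0.3 ppm lay below the lowest control library, by 1 count in the case of replicate 3, and those at 1 ppm overlapped the control. The group means were 81.0 ± 24.6, 78 ± 22.7, 43.3 ± 18.0 and 54.3 ± 18.6 normalised counts in the order of dose (SD, n = 3 each). At 0.3 ppm the log2 fold change was -0.94 (SE 0.38, 95% interval -1.77 to -0.11), with an unadjusted p of 0.0294 and an adjusted p of 0.9998 (limma, over all genes), so the difference was not called. It was -0.06 (-0.89 to 0.78) at 0.03 ppm and -0.58 (-1.41 to 0.26) at 1 ppm. Fitted as a slope over the order of the 4 groups, the estimate was -0.26 per step, with an adjusted p of 0.897 (limma). Groups without overlap with the control, in either direction, were found for 0, 1 and 0 of the 9 photoreceptor genes at 0.03, 0.3 and 1 ppm, and for 7.4%, 7.09% and 8.75% of all genes tested.

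Zebrafish carry a tandem pair of red opsins, and opn1lw2, the other of the pair, took nearly all of their counts here. Opn1lw2 had 11364, 6628 and 7583 normalised counts in control larvae, 11920, 7316 and 8365 at 0.03 ppm, 7863, 6562 and 9970 at 0.3 ppm, and 9801, 5152 and 10537 at 1 ppm. Its log2 fold change was 0.12, -0.05 and -0.03 at the 3 doses in order. Opn1lw1 made up 0.933%, 1.16% and 0.759% of the summed opn1lw1 and opn1lw2 counts in control larvae, 0.782%, 0.706% and 1.04% at 0.03 ppm, 0.632%, 0.349% and 0.568% at 0.3 ppm, and 0.497%, 0.751% and 0.707% at 1 ppm. This share, which does not depend on how a library was scaled, lay below all 3 control values in all 3 libraries at 0.3 ppm and in all 3 at 1 ppm. The margin at 1 ppm was small: replicate 2, with 39 opn1lw1 counts, was at 0.751%, against 0.759% in control replicate 3. No background over other gene pairs was computed for such a share. The group means were 0.952% ± 0.203, 0.843% ± 0.176, 0.517% ± 0.148 and 0.652% ± 0.136 (SD, n = 3 each). The share was computed after the values of opn1lw1 had been seen and carries no test, and an exact test of 3 against 3 libraries cannot give a p below 0.1. The 2 red opsins are closely similar in sequence, and how the authors' counting divided shared reads between them is not given, so the split between the pair is uncertain. In the RefSeq annotation of assembly GRCz12tu, opn1sw2, opn1lw1 and opn1lw2 are consecutive protein-coding genes of the same chromosome.

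Gnat1 (ENSDARG00000044199), the transducin alpha subunit of rods, had 1779, 1150 and 1053 normalised counts in control larvae, 1833, 1082 and 973 at 0.03 ppm, 1399, 1151 and 1379 at 0.3 ppm, and 1454, 947 and 1393 at 1 ppm. Gnat2 (ENSDARG00000042529), its cone counterpart, had 6791, 3778 and 4399 in the control, 6076, 4682 and 4891 at 0.03 ppm, 4189, 4624 and 6054 at 0.3 ppm, and 5804, 3395 and 6743 at 1 ppm. In both genes each dose overlapped the control. The log2 fold changes lay between -0.06 and 0.01 for gnat1 and between 0.02 and 0.10 for gnat2, and their 95% intervals at 1 ppm were -0.62 to 0.51 and -0.51 to 0.66.

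Pde6c (ENSDARG00000100397), the catalytic subunit of the cone phosphodiesterase, had 3649, 1568 and 1277 normalised counts in control larvae, 2226, 1962 and 1457 at 0.03 ppm, 1789, 1774 and 1692 at 0.3 ppm, and 2354, 1584 and 1963 at 1 ppm. Arr3a (ENSDARG00000056511), an arrestin of cones, had 6103, 3085 and 2528 in the control, 4333, 3591 and 2800 at 0.03 ppm, 2993, 3416 and 3388 at 0.3 ppm, and 3915, 3052 and 3851 at 1 ppm. Crx (ENSDARG00000011989) had 905, 446 and 396 in the control, 682, 522 and 470 at 0.03 ppm, 519, 498 and 452 at 0.3 ppm, and 561, 400 and 459 at 1 ppm. In all 3 genes the control group held both the highest and the lowest of the 12 libraries, its replicates 1 and 3. The libraries at 0.3 ppm lay closer together: pde6c averaged 1752 ± 52.2 normalised counts at 0.3 ppm and 2165 ± 1290 in the control, arr3a 3266 ± 237 at 0.3 ppm and 3905 ± 1920 in the control, and crx 489.7 ± 34.3 at 0.3 ppm and 582.3 ± 281 in the control (SD, n = 3 each). The difference in spread was not tested. The log2 fold changes of these genes ran from -0.21 (crx at 1 ppm, 95% interval -0.79 to 0.37) to 0.02 (crx at 0.03 ppm).

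**Figure D1:**
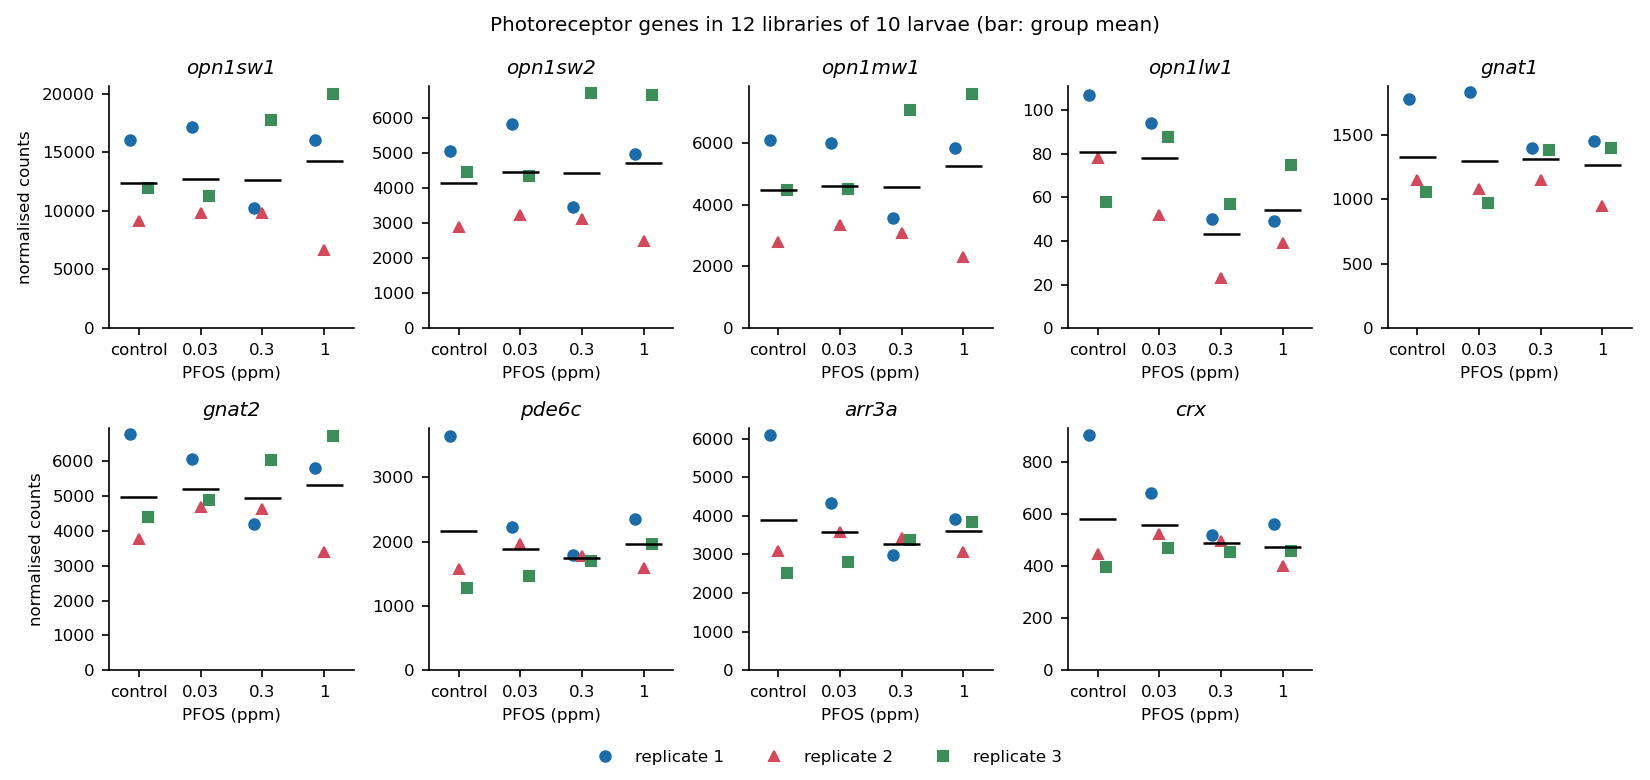
Normalised counts (vertical axes, from 0) of the 9 photoreceptor genes in each library, by PFOS concentration, with the symbol giving the replicate number and the bar the mean of 3 libraries. The symbols of a group spread over a range that overlaps the control in every panel except opn1lw1 at 0.3 ppm, where the values are 50, 23 and 57 against 107, 78 and 58 in the control.

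By dose, the joint test of the 3 concentrations called 0 of the 9 genes and 0.0941% of all genes, and the slope over dose order called 0 of the 9 and 0.0134% of all genes. With a term for the replicate number, which the labels give to every group, the number of genes called at 1 ppm was 58 in place of 31, and 0 of the 9 photoreceptor genes were among them. At an unadjusted p under 0.05 the counts were 0 of 9 at 0.03 ppm, 1 of 9 at 0.3 ppm (opn1lw1) and 0 of 9 at 1 ppm, against 3.49%, 2.82% and 4.74% of all genes. At the same level the joint test had 0 of 9 and 2.34% of all genes, and the slope 0 of 9 and 5.56%.

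At each dose 5 of the 9 estimates were above the control and 4 below. Their median log2 fold change was 0.022 at 0.03 ppm, 0.006 at 0.3 ppm and 0.001 at 1 ppm, where the median of all genes tested was -0.019, -0.006 and -0.009. With libraries scaled to equal totals the median log2 change of all genes moved to 0.039, -0.025 and 0.01 in the same order. That of the 9 genes was then 0.081, -0.012 and 0.020, so its sign at 0.3 ppm changed with the scaling. Leaving out libraries moved the median between -0.20 and 0.33 at 0.03 ppm, between -0.32 and 0.29 at 0.3 ppm and between -0.29 and 0.30 at 1 ppm, and weighting the libraries gave 0.23, 0.072 and 0.38, so neither its sign nor its size was stable at any dose. The widest 95% interval at each dose was that of opn1mw1, from -0.88 to 1.04 at 0.03 ppm, from -0.95 to 0.96 at 0.3 ppm and from -0.82 to 1.09 at 1 ppm, and the narrowest was that of gnat1, from -0.62 to 0.51, from -0.55 to 0.58 and from -0.62 to 0.51 in the same order. These intervals are of the fit without a replicate term, so their widths include the spread between replicate numbers. The replicate number took 69.1% of the variance of opn1mw1 and 65.2% of that of gnat1. When each gene's 4 groups were put in order of their means, every pair of neighbouring groups overlapped in all 9 genes.

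**Figure D2:**
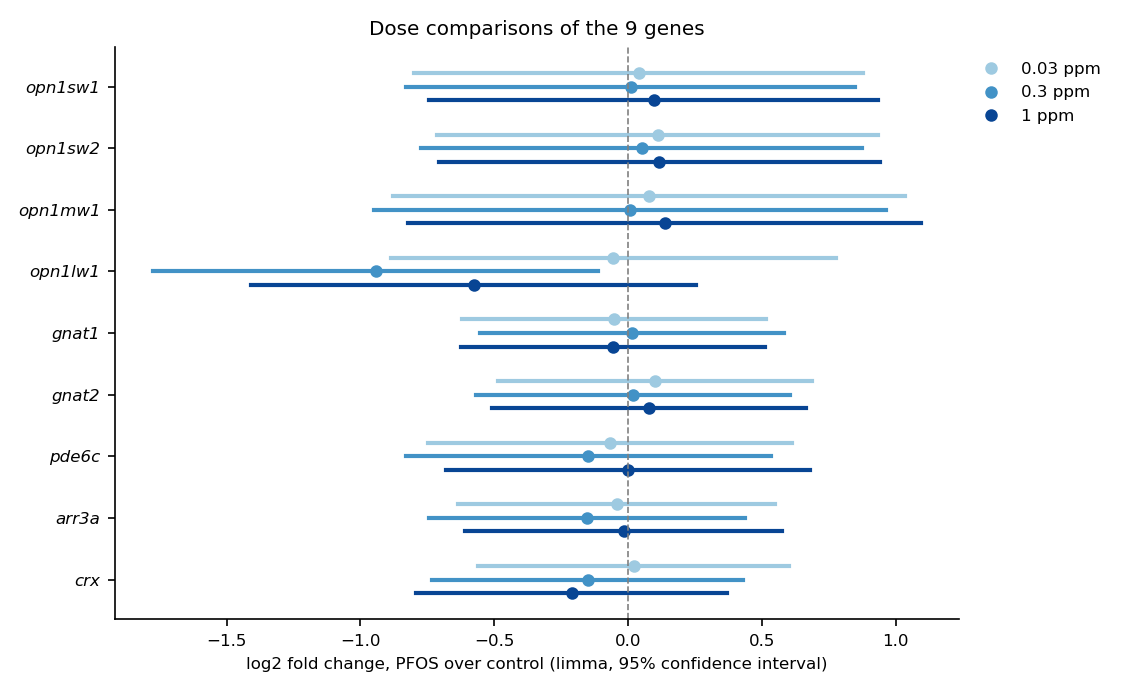
Log2 fold change of PFOS over control for the 9 photoreceptor genes (points) with the 95% confidence interval of the limma fit (lines), for 0.03, 0.3 and 1 ppm from top to bottom within a gene. Apart from opn1lw1 at 0.3 ppm, from -1.77 to -0.11, each interval spans 0. The fit had no term for the replicate number.

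The dosed and control libraries of the same replicate number differed in sign by number. At 0.3 ppm all 9 genes were lower than in the control in replicate 1 (median log2 ratio -0.771), whereas 8 of 9 were higher in replicate 2 (0.136) and 8 of 9 in replicate 3 (0.422). At 1 ppm 8 of 9 genes were lower in replicate 1 (-0.291) and 8 of 9 in replicate 2 (-0.209), and all 9 were higher in replicate 3 (0.607). At 0.03 ppm the medians were -0.16, 0.219 and 0.147 in replicates 1, 2 and 3. Each ratio is of 1 library to 1 library, no median of all genes is given for these pairs, and the 9 genes vary together. The counts are therefore a description. Control replicate 1 was the highest of the 12 libraries for the 9 genes, with a mean log2 deviation of 0.605 from their own means. Opn1lw1 at 0.3 ppm was lower in each of the 3 numbers, with log2 ratios of -1.08, -1.72 and -0.03. With the replicate term its adjusted p was 0.709 (limma).

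All of the 9 genes except opn1lw1 varied more with the replicate number than with dose, a comparison added after the values had been seen. Of the variance of log2 values over the 12 libraries, the dose groups took a median of 1.7% in the 9 genes and 19.7% in all genes tested, and the replicate number took a median of 57.6% in the 9 genes and 32.3% in all genes. Opn1lw1 stood apart from the other 8, with 45.2% for dose and 28.6% for the replicate number, where the others had 0.6% to 9.4% and 35% to 69.9%. The joint test of opn1lw1 over the doses had an unadjusted p of 0.0879 and an adjusted p of 0.9999 (limma), so it was not called. Such shares are above 0 even without any effect and were not adjusted for the number of groups or replicate numbers. A joint test of the replicate number beside dose called opn1mw1 (adjusted p 0.0359) and opn1sw2 (adjusted p 0.0365, limma), 2 of the 9 genes, and it called 9.17% of all genes. At an unadjusted p under 0.05 there were 7 of the 9 genes and 30.4% of all genes. Both called opsins had values in replicate 2, 2300 to 3345 for opn1mw1 and 2497 to 3245 for opn1sw2, below every library of replicates 1 and 3.

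In replicate 2 over replicate 1 the estimates of all 9 genes were below 0, from -0.88 for opn1mw1 to -0.36 for arr3a on the log2 scale, with a median of -0.57 where all genes had 0.01. In replicate 3 over replicate 1 the median was -0.048, with 3 genes above 0 and 6 below, and leaving out libraries moved it between -0.25 and 0.081. The 3 above 0 were opn1sw1 (0.02), opn1mw1 (0.13) and opn1sw2 (0.19), the opsins of short and middle wavelengths, and the lowest were pde6c (-0.62), crx (-0.55), gnat1 (-0.44) and arr3a (-0.44). Leaving out replicate 2 at 1 ppm left 3 genes called by the replicate number in place of 2047, and 0 of the 9 photoreceptor genes. None of the 9 was called either when replicate 2 of the control, at 0.03 ppm or at 0.3 ppm, replicate 3 at 0.3 ppm, or replicate 1 or 3 at 1 ppm was left out on its own. Scaling the libraries to equal totals moved the median of all genes in replicate 2 over replicate 1 to -0.158 and gave the 9 a median of -0.74. It raised the number of photoreceptor genes called to 5 and that of all genes called from 2047 to 3329.

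**Figure D3:**
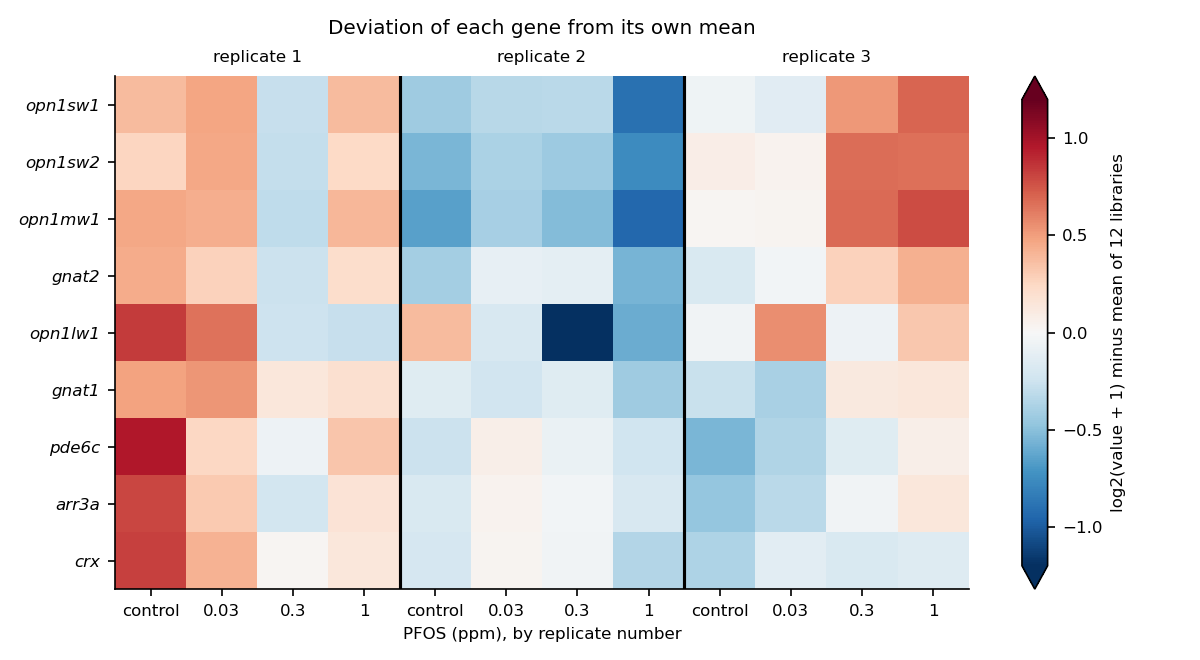
Deviation of each photoreceptor gene in each library from its own mean over 12 libraries, in log2 units (colour), with libraries ordered by replicate number and within it by PFOS concentration. The mean over the 9 genes is highest in control replicate 1 (0.605) and lowest in replicate 2 at 1 ppm (-0.551), where all 9 genes are below their own mean.

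The mean deviation over the 9 genes ordered the libraries from 0.605 in control replicate 1 and 0.423 in replicate 1 at 0.03 ppm down to -0.336 in replicate 2 at 0.3 ppm and -0.551 in replicate 2 at 1 ppm. Every one of the 9 genes was above its own mean in the 2 highest libraries and below it in the 2 lowest. Together the 9 genes took from 0.0654% of the normalised counts in replicate 2 at 1 ppm to 0.182% in replicate 3 at 1 ppm, and 0.081% to 0.173% in the 3 control libraries.

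Over the 12 libraries some of the genes followed each other closely. Opn1sw1, opn1sw2, opn1mw1 and gnat2, opsins and transducin of cones, had pairwise Pearson correlations of 0.90 to 0.99, and pde6c, arr3a and crx had 0.898 to 0.972. Between the 2 sets the correlations were 0.315 to 0.713, lowest for opn1sw2 with crx and highest for gnat2 with arr3a. Gnat2 with pde6c was at 0.654, and gnat2, pde6c and arr3a are all cone genes. Gnat1, the rod gene, was correlated with both sets, at 0.635 to 0.75 with the first and 0.783 to 0.796 with the second. Opn1lw1 correlated with the others at 0.337 to 0.522. On deviations from the group means its correlations ran from 0.369 with pde6c to 0.711 with opn1mw1. The sets were read from the values afterwards, the libraries share groups and replicate numbers, and the correlations are given as a description.

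Ratios within a library are free of its scaling. The log2 ratio of gnat1 to gnat2, of rods and cones in turn, averaged -1.90 ± 0.18 in the control, -2.06 ± 0.30 at 0.03 ppm, -1.91 ± 0.29 at 0.3 ppm and -2.04 ± 0.22 at 1 ppm (SD, n = 3 each), differences smaller than the spread within the control. It was -2.33 to -2.06 in the 4 libraries of replicate 3, -2.00 to -1.58 in replicate 1 and -2.11 to -1.72 in replicate 2, so that replicate 3 lay below replicate 1 and overlapped replicate 2. The ratio of arr3a to gnat2, both of cones, was -0.84 to -0.80 in replicate 3 and -0.57 to -0.15 in the 8 other libraries. Among the 4 cone opsins, opn1sw1 took 55.8% to 61.4% of their summed counts, opn1sw2 18.5% to 21.7%, opn1mw1 18.8% to 22.4% and opn1lw1 0.143% to 0.522%; the lengths of the transcripts were not taken into account.

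**Figure D4:**
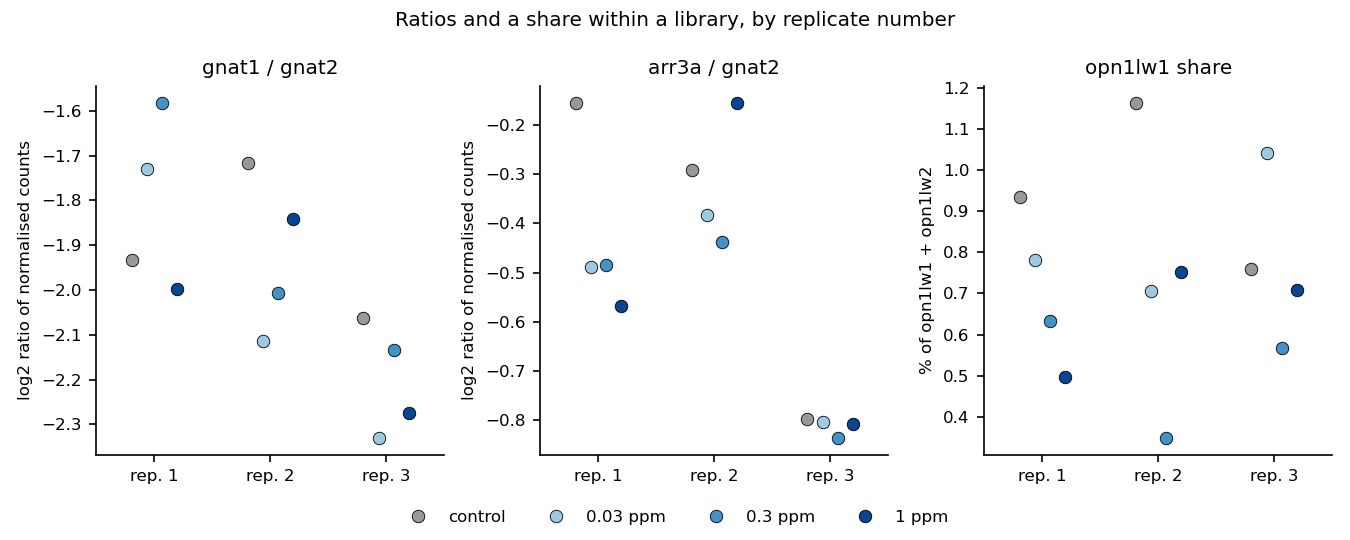
Log2 ratio of gnat1 to gnat2 and of arr3a to gnat2, and opn1lw1 as a percentage of opn1lw1 plus opn1lw2, in each library (points, coloured by PFOS concentration) by replicate number. The arr3a ratios of replicate 3 lie apart from the other 8 libraries, while the opn1lw1 share is below all control values (0.933%, 1.16% and 0.759%) in the 3 libraries at 0.3 ppm and the 3 at 1 ppm. At 1 ppm the highest share, 0.751% in replicate 2 with 39 opn1lw1 counts, is close to the lowest control value. The share was computed after the values had been seen, with no test and no background over other gene pairs.

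Genes of like pattern were sought among 13484 others with a mean of at least 100, leaving out symbols that are clone or locus names. Those most like the mean pattern of the 9 were gnb3b, a transducin beta subunit (Pearson r 0.983 over 12 libraries), opn1lw2 (0.972), the fatty acid elongase elovl4b (0.964), the heterochromatin-binding hp1bp3 (0.958) and ZNF423, which encodes a zinc finger protein (0.952). On deviations from the group means, which leave dose out, their correlations were 0.99, 0.981, 0.977, 0.963 and 0.952. Their ranks on that measure were 1, 2, 4, 12 and 22.

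The related copies of the named opsins and arrestin gave no called difference. Opn1mw2, a second green opsin, averaged 284.3 ± 98 normalised counts in control larvae, 369 ± 103 at 0.03 ppm, 339 ± 90.4 at 0.3 ppm and 281.3 ± 13.3 at 1 ppm (SD, n = 3 each). Opn1mw3 was at 0 to 3 in the 12 libraries and was not tested, and arr3b, a second cone arrestin, ranged from 1016 to 2267. Opn1mw2 did not follow the 9 genes by replicate number, with 0.00 in replicate 2 over replicate 1, where opn1mw1 had -0.88. The green opsins are consecutive genes as well, and reads shared between copies leave their split uncertain.

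The other genes of the cascade, 44 of the 59 names on a list of phototransduction genes, were likewise not called at any dose, in the joint test or by the slope. Of these 44, 7 estimates were above the control and 37 below at 0.03 ppm (median -0.116), 18 and 26 at 0.3 ppm (-0.038), and 13 and 31 at 1 ppm (-0.081). Those with the smallest joint p were guca1e and guca1g, which encode calcium sensors of guanylate cyclase, with opposite estimates. Guca1e averaged 34.3 ± 14.4 normalised counts in control larvae, 40 ± 5.57 at 0.03 ppm, 43.3 ± 5.51 at 0.3 ppm and 59.3 ± 9.07 at 1 ppm, and guca1g 366 ± 74.5, 345 ± 97.2, 322.3 ± 28.7 and 230.3 ± 57.3 in the same order (SD, n = 3 each). Their joint adjusted p was 0.9999 (limma).

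By replicate number 9 of the 44 cascade genes were called, against 9.17% of all genes tested, and all 9 had lower estimates in replicate 2 than in replicate 1. They were the rod phosphodiesterase subunits pde6a and pde6b, the phosducin pdca, the guanylate cyclase gc3, the rod arrestin sagb, the sodium-calcium exchanger slc24a2, the opsin kinase grk1a, the cone channel subunit cnga3a and the cone transducin gamma subunit gngt2b. In replicate 3 over replicate 1, pde6b was at -1.03, pde6a at -0.92 and pdca at -0.87, while gngt2b was at 0.57, above 0 as opn1sw1 and opn1sw2 were. All of the 9 called cascade genes but gngt2b had lower estimates in replicate 3 than in replicate 2. Sagb was at -0.02 in replicate 2 over replicate 1 and at -0.74 in replicate 3 over replicate 1. Among photoreceptor outer segment and synapse genes 6 of 36 were called by replicate number, rom1a, rom1b, prom1b, prph2a, impg1a and ndrg1b, and among photoreceptor transcription factors 2 of 18, six7 and rx1. Six7, a regulator of cone opsins, had 0.02 in replicate 2 over replicate 1 and -0.69 in replicate 3 over replicate 1. Without replicate 2 at 1 ppm, 3 genes of the whole table were called by replicate number, in place of 2047. Which calls of these lists depend on that library was not tested gene by gene.

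No gene of these lists was called by dose. The 36 outer segment and synapse genes tested had 3 estimates above and 33 below the control at 0.03 ppm (median -0.175), 11 and 25 at 0.3 ppm (-0.082), and 9 and 27 at 1 ppm (-0.107). The axonemal rp1l1a averaged 216.3 ± 70.5 normalised counts in control larvae, 162.3 ± 43 at 0.03 ppm, 133.7 ± 40 at 0.3 ppm and 140.7 ± 25.7 at 1 ppm (SD, n = 3 each, joint adjusted p 0.9999 by limma). The 23 genes of the visual cycle and pigment epithelium had 10 above and 13 below at 0.03 ppm (-0.125), but 21 above and 2 below at 0.3 ppm (0.20) and at 1 ppm (0.155). Among them stra6, a receptor for retinol-binding protein, averaged 988.3 ± 320, 801 ± 148, 1123 ± 284 and 1242 ± 117 in the order of dose, and mitfa, a melanocyte regulator, 31 ± 14.9, 31.3 ± 5.51, 39.3 ± 8.5 and 53.3 ± 12.9 (SD, n = 3 each). That list also holds pigment genes such as pmela and tyrp1a, and whole larvae do not separate the eye from pigment cells elsewhere. Genes of a list vary together, so such counts are given beside the medians of all genes, -0.019, -0.006 and -0.009, as a description. At 0.03 ppm, lists of other tissues leaned below the control as well. Pan-neuronal genes had 0 estimates above and 22 below (median -0.297), lens genes 0 and 14 (-0.437) and skeletal muscle genes 2 and 18 (-0.258). Epidermis genes had 12 above and 7 below (0.164). The lean at that dose was therefore not particular to the cascade or outer segment lists.

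**Figure D5:**
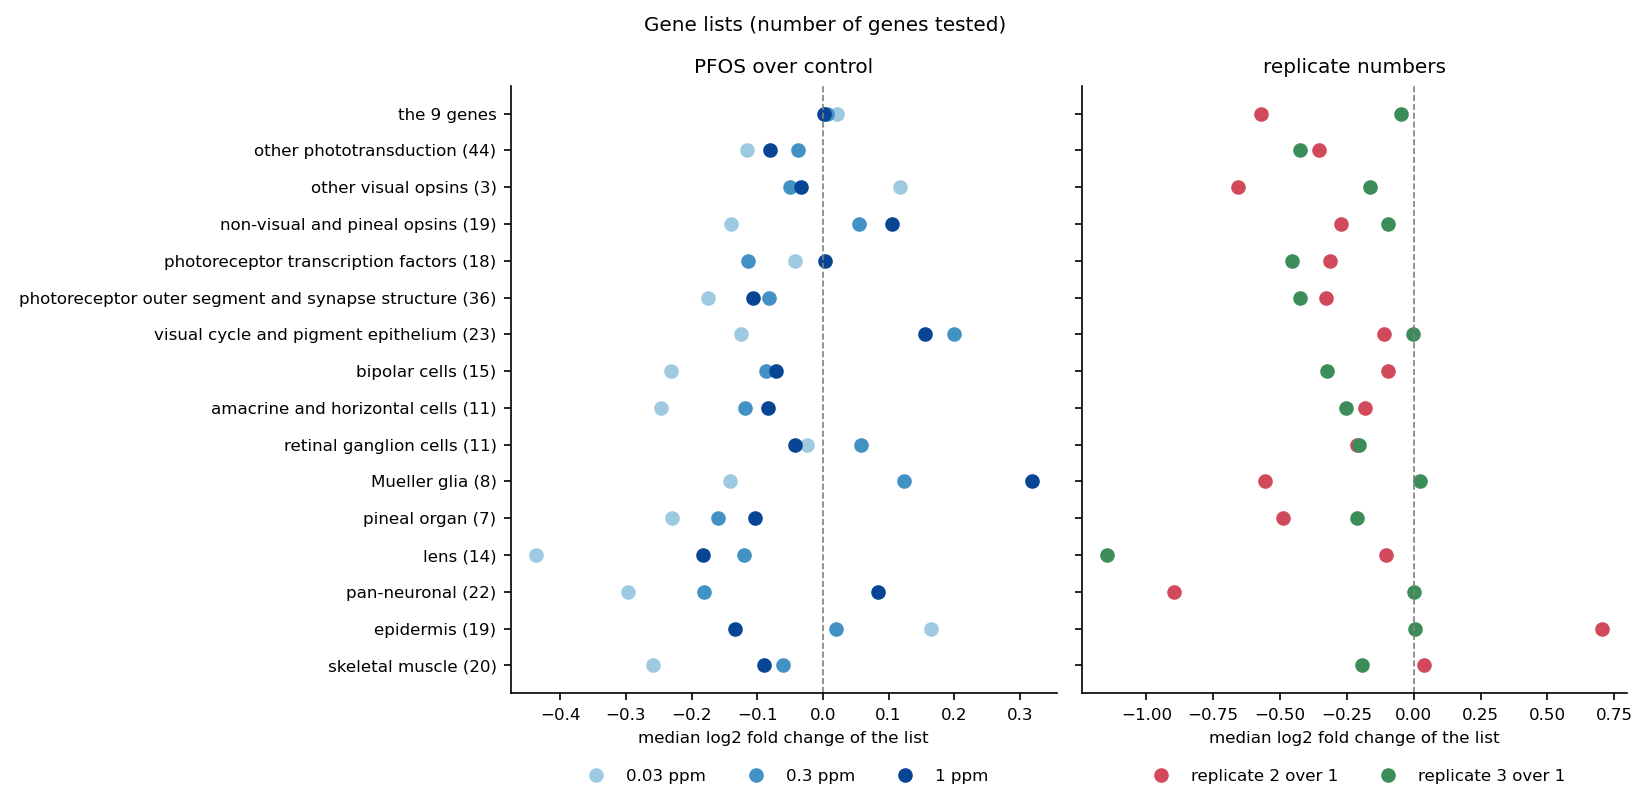
Median log2 fold change of the 9 photoreceptor genes and of 15 gene lists (number of tested genes in brackets), for each PFOS concentration over control on the left and for replicates 2 and 3 over replicate 1 on the right. The medians by dose of the 9 genes lie between 0.001 and 0.022, and their medians by replicate number are -0.57 and -0.048.

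Transcripts of some other tissues also varied with the replicate number, by which 9.17% of all genes were called. Of 20 skeletal muscle genes 1 was called, and their median was 0.037 in replicate 2 over replicate 1. Of 11 retinal ganglion cell genes 0 were called. Keratins and other epidermis genes took 8.37% to 11.4% of the normalised counts in the 4 libraries of replicate 2, 4.92% to 7.81% in replicate 1 and 5.43% to 7.06% in replicate 3, and 11 of 19 were called by replicate number, all with higher estimates in replicate 2 than in replicate 1. Pan-neuronal genes took 0.0598% to 0.084% in replicate 2, 0.0944% to 0.202% in replicate 1 and 0.105% to 0.169% in replicate 3, with 10 of 22 called, all lower in replicate 2 than in replicate 1. Lens genes had a median of -1.15 in replicate 3 over replicate 1, with 10 of 14 called. Of 32 clock genes, a list added after the pattern was seen, 8 were called by replicate number. Per1a, the lowest of the 32 in replicate 3 over replicate 1, was at -0.91 there and at 0.00 in replicate 2 over replicate 1. The other called clock genes were also below 0 in replicate 3 over replicate 1. With replicate 3 over 1 given first and 2 over 1 second, dbpb was at -0.704 and 0.039 and nr1d1 at -0.595 and 0.309. Bhlhe41 was at -0.474 and -0.111, cry2 at -0.311 and 0.063, and nr1d2b at -0.296 and 0.106. Per2 (-0.12 and 0.44) and cry5 (-0.10 and 0.45) were closest to 0 in replicate 3 over 1. The median of the 32 was -0.272 in replicate 3 over 1 and -0.002 in replicate 2 over 1. Without replicate 2 at 1 ppm the test by replicate number called 3 genes in all. The part of skin, neural, lens or clock transcripts in the differences of the 9 photoreceptor genes was not tested.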

How the data were processed

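The deposited values, which the authors call normalised counts, were treated as a score: they are whole numbers, but not raw counts. Per the submitters' processing notes, the build was GRCz10 and the tools included DESeq2 1.10.1, RSEM 1.2.28, STAR 2.5.1b and CASAVA; settings are not given in the sources used here. The deposited table of the whole series was not used. With no sequence of that build at hand, no sequences or coordinates are printed. In R 4.3.3, limma 3.58.1 was fitted to log2(value + 1) of the 12 libraries, with a mean for each group and a variance trend on expression level, for the 22320 of 26873 genes with at least 10 in at least 3 libraries. Fold changes are on that scale, which understates changes of low genes. Tests were two-sided, with Benjamini-Hochberg adjustment over all genes and calls under 0.05, and every adjusted p comes from limma. The code was tested on simulated data. Figures used Python 3.11.15 and matplotlib 3.10.9.

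The genes, lists and comparisons were chosen with earlier results of these data known. A further gene of the set is not reported here. Named are the 9 genes, up to 4 genes per list with the smallest joint p, any list gene called in a comparison, and the 5 genes of most similar pattern; most genes called by replicate number in lists outside the photoreceptor are given as counts. Alternatives covered scaling, pseudocount, filter, replicate term, groups fitted, trend, library weights, dose coding and omission of libraries. Deviations from group means of same-numbered libraries correlated at 0.145 to 0.287 for 0.3 ppm and control. For 1 ppm and control they correlated at 0.119 to 0.478, and for 0.03 ppm and control at 0.0776 to 0.291. Differently numbered libraries correlated at up to -0.0106, 0.2044 and 0.2259 in the same order. With a threshold of 0.1 on same-numbered libraries, the numbers were taken to pair the first 2 comparisons only. The main fit nevertheless had no replicate term. Its standard errors, intervals and p-values at 0.3 and 1 ppm therefore include the spread between replicate numbers. That number took a median of 57.6% of the variance of the 9 genes. The replicate term left the estimates of the 9 genes unchanged and called none of them. Intervals with that term are not given.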

Additional observations from a re-analysis of the deposited data

How the results depend on the processing

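None of 675 tests of the 9 genes at a dose, over all alternatives run, reached an adjusted p under 0.05; the smallest was 0.142 (pde6c at 1 ppm with library weights, limma). The p-values of opn1lw1 at 0.3 ppm ranged from 0.38 to 1 after adjustment, and its log2 fold change stayed below 0. Counts of all genes called moved more. They were 13, 29 and 31 at 0.03, 0.3 and 1 ppm, 21 jointly and 3 by the slope. With equal library totals they were 6 at 0.03 ppm, 18 at 0.3 ppm and 8 jointly. Without the mean-variance trend they were 2, 12, 3 jointly and 0 by the slope. With library weights they were 57, 95, 768, 188 jointly and 882 by the slope. With only 2 groups fitted they were 3, 11 and 3, and with dose in ppm the slope gave 0. With the replicate block they were 20 at 0.03 ppm, where the numbers were not taken to pair the libraries, 43 at 0.3 ppm and 58 at 1 ppm. They were 39 jointly and 9 by the slope, and the block changed no call of the 9 genes. Calls by replicate number, 2047 genes and 2 of the 9, were 3329 and 5 with equal totals, 61 and 0 without the trend, and 3945 with weights. Leaving libraries out, they ranged from 3 to 2841 genes and 0 to 3 of the 9, with the lowest without replicate 2 at 1 ppm. The dose counts ranged from 0 to 11, 0 to 31 and 0 to 47, jointly 0 to 23 and by the slope 0 to 30; without replicate 1 in all groups, and likewise without replicate 3, the 3 doses had 0 calls each, and without replicate 2 they had 7, 18 and 26. The cause of these shifts was not tested.

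Uncalled estimates near 0 changed sign. With equal totals, which moved the median of all genes in replicate 2 over 1 to -0.158 and over 3 to -0.196, they were 0.0062 (gnat1), 0.017 (arr3a) and 0.00275 (opn1lw1) at 0.03 ppm, -0.00878 (opn1sw1), -0.012 (opn1mw1), -0.0040 (gnat1) and -0.00013 (gnat2) at 0.3 ppm, and 0.0026 (arr3a) at 1 ppm. With library weights they were 0.15 (gnat1), 0.35 (pde6c), 0.31 (arr3a) and 0.40 (opn1lw1) at 0.03 ppm. At 0.3 ppm they were -0.078 (opn1sw1), 0.25 (crx), -0.18 (opn1mw1), 0.36 (pde6c), 0.25 (arr3a) and -0.19 (opn1sw2). At 1 ppm they were 0.23 (crx), 0.31 (gnat1) and 0.48 (arr3a). Leaving out libraries gave these ranges at 0.03 ppm: opn1sw1 -0.19 to 0.25, opn1sw2 -0.13 to 0.32, opn1mw1 -0.22 to 0.34, opn1lw1 -0.38 to 0.21, gnat1 -0.33 to 0.18, gnat2 -0.077 to 0.35, pde6c -0.37 to 0.39, arr3a -0.30 to 0.33 and crx -0.21 to 0.39. At 0.3 ppm they were opn1sw1 -0.27 to 0.34, opn1sw2 -0.29 to 0.35, opn1mw1 -0.36 to 0.39, opn1lw1 -1.40 to -0.55, gnat1 -0.17 to 0.25, gnat2 -0.20 to 0.38, pde6c -0.45 to 0.31, arr3a -0.44 to 0.28 and crx -0.38 to 0.22. At 1 ppm they were opn1sw1 -0.23 to 0.57, opn1sw2 -0.19 to 0.52, opn1mw1 -0.21 to 0.65, opn1lw1 -1.05 to -0.31, gnat1 -0.29 to 0.18, gnat2 -0.19 to 0.37, pde6c -0.31 to 0.46, arr3a -0.33 to 0.36 and crx -0.44 to 0.16. With 3 libraries a group, the mean spread within groups was 0.40 log2 units (SD) in the 9 genes, and no limit of detection was calculated; an estimate of -0.94 (opn1lw1 at 0.3 ppm) was not called.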

Other observations

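No gene of the lists for other retinal cells was called at any dose by limma. The counts by replicate number given here stand beside 9.17% of all genes called, and without replicate 2 at 1 ppm that test called 3 genes in all in place of 2047. Bipolar cell genes, the second-order neurons of the retina, had medians of -0.232, -0.086 and -0.071 at 0.03, 0.3 and 1 ppm over 15 genes, and 3 of them were called by replicate number, among them vsx1, a bipolar cell regulator, at -0.60 in replicate 3 over replicate 1. Of the 11 amacrine and horizontal cell genes, 11 estimates were below the control at 0.03 ppm, 10 at 0.3 ppm and 7 at 1 ppm. At 0.03 ppm all 22 pan-neuronal and all 14 lens genes tested were below it as well. Of the 8 Mueller glia genes, 2 estimates were above the control at 0.03 ppm, 6 at 0.3 ppm and 8 at 1 ppm, with medians of -0.142, 0.123 and 0.318. Pan-neuronal genes also had more estimates above the control by dose, 0, 6 and 16 of 22, whereas epidermis genes had 12, 12 and 9 of 19. By replicate number 3 of the 8 glia genes were called, with a list median of -0.555 in replicate 2 over replicate 1. Whole larvae do not separate the retina from other tissue. Cahz, a carbonic anhydrase of Mueller glia that red cells also express, averaged 1390 ± 57.5 normalised counts in the control, 1477 ± 462 at 0.03 ppm, 2020 ± 342 at 0.3 ppm and 1920 ± 463 at 1 ppm (SD, n = 3 each), with a joint adjusted p of 0.9999 (limma).

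The 19 non-visual and pineal opsins tested had medians of -0.14, 0.055 and 0.105 in the order of dose. Rgra, an opsin of the pigment epithelium and glia, averaged 1180 ± 432 in the control, 1001 ± 372 at 0.03 ppm, 1330 ± 134 at 0.3 ppm and 1510 ± 449 at 1 ppm (SD, n = 3 each). Valopa, a vertebrate ancient opsin of deep brain and retina, was called by replicate number (adjusted p 0.0244 by limma), with 37 to 60 normalised counts in replicate 2, 88 to 116 in replicate 1 and 52 to 72 in replicate 3. Of the 7 pineal genes tested 1, bsx, was called by replicate number, with 3 to 16 in replicate 2, 18 to 35 in replicate 1 and 14 to 31 in replicate 3.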
